A study of Mus musculus with 12 samples.

Results

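The UDP-glucuronosyltransferases examined here are 10 liver Ugt genes, Ugt1a1, Ugt1a6a, Ugt1a6b, Ugt1a9, Ugt2a3, Ugt2b1, Ugt2b5, Ugt2b34, Ugt2b35 and Ugt2b36. They were chosen by symbol from a table of 49398 Ensembl genes, all 10 were found, and all 10 were among the 13814 genes with enough reads to be tested. The table lists 12 other Ugt genes, of which 9 were tested. Liver mRNA was sequenced from 12 wild-type C57BL/6J mice aged 9 months, 2 females and 2 males on each of 3 diets. The control diet was the purified AIN-93G chow with no added oil, and the other diets were the same chow with 1% or 5% by weight of an oil concentrate of very-long-chain polyunsaturated fatty acids (VLCPUFA), each fed for 8 weeks. All animals had fasted for 5 hours and were killed with tribromoethanol. The control animals were N979 and N980 (females) with N967 and N968 (males). The 1% animals were N983 and N984 (females) with N971 and N972 (males), and the 5% animals N987 and N988 (females) with N975 and N976 (males). No number is shared between diets, and the labels give no batch, cage or hour of collection.

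UDP-glucuronosyltransferases sit in the membrane of the endoplasmic reticulum and transfer glucuronic acid from UDP-glucuronic acid to bilirubin, steroids, bile acids, fatty acid derivatives, phenols and many drugs, which makes these molecules water-soluble and fit for export into bile or blood. Genes of the Ugt1a locus each have a first exon of their own and share the remaining exons, so that their proteins differ in the substrate-binding part and share the part that binds UDP-glucuronic acid. Genes of the Ugt2b group are separate genes that lie in a cluster. In the liver these enzymes are made mainly by hepatocytes, where the nuclear receptors CAR, PXR and PPARα and the factors AhR and NRF2 are known to act on their promoters.

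The promoters of 4 Ugt2b members are shown so that genes that rose on 5% oil (Ugt2b35 and Ugt2b5) can be set beside genes that passed in no diet comparison (Ugt2b36 and Ugt2b1). RefSeq promoters (build GRCm38.p6, 250 bases before to 50 bases after the annotated start) were found for 9 of the 10 members, all but Ugt1a6b. The 100 bases before the start follow, 5′ to 3′ on the gene's strand, with capitals for a match to the D-box, the letters bound by clock output factors such as Dbp.
Ugt2b35: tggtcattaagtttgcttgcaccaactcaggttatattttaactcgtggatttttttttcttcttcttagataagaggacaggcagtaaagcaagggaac
Ugt2b5: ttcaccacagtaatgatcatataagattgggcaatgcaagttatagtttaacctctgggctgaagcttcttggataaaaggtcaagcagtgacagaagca
Ugt2b36: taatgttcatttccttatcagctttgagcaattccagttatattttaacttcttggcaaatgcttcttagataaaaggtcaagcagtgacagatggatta
Ugt2b1: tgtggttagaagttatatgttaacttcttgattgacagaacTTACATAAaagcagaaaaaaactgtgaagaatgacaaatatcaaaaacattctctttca

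On GRCm38.p6 these windows lie at chr5:87000760-87000859 on the plus strand for Ugt2b35 and, all on the minus strand, at chr5:87140341-87140440 for Ugt2b5, chr5:87092556-87092655 for Ugt2b36 and chr5:86926504-86926603 for Ugt2b1. The D-box TTATGTAA, searched like the other patterns on both strands of the whole 300 bases, was in 1 member promoter, that of Ugt2b1, where it stands on the opposite strand with its first base at position -59 from the start, and in 0.938% of 32851 promoters. The antioxidant response element TGACNNNGC was in no member promoter and in 12.4% of all promoters, the xenobiotic response element GCGTG was in no member promoter and in 32.4% of all promoters, and the direct repeat of AGGTCA with 1 base between was in no member promoter and in 0.0396% of all promoters. These searches say only which letters stand in these windows.

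The shallowest library, control female N979, held 5291385 estimated reads, and the deepest, that of 5% male N976, held 15674130. Long noncoding genes took 0.646% to 1.63% of the reads in control livers, 0.685% to 1.91% in 1% livers and 0.676% to 1.24% in 5% livers, with the highest shares in 1% females N984 and N983 and control female N979. Members are given in CPM, reads relative to the library total scaled by TMM factors, and fold changes are log2 values with their standard error from edgeR's quasi-likelihood test with sex as a term. Each library has a number of its own, and p-values measure the spread between these samples, whatever it comes from. In bulk tissue, fewer cells of a type and less RNA per cell cannot be told apart.

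On 5% oil Ugt2b35 and Ugt2b5 rose, and on 1% oil no member passed the test. Of the 10 members, 2 rose and 0 fell in 5% against control livers, where 2.46% of all tested genes passed in either direction and 1.19% rose. The median log2 fold change of the members was 0.42, against 0.0127 over all genes, and 9 of the 10 values were positive. In 1% against control livers no member passed edgeR's adjusted p of 0.05, where 0.224% of all genes passed. DESeq2 and limma voom also called 0 members there, and 266 and 48 of all genes. An unadjusted p under 0.05 at 1% was found for 1 member and for 1530 of the 13814 genes. Of all genes 2010 had such a p in 5% against control and 2454 in 5% against 1% livers. The members' median at 1% was -0.24, against 0.000634 over all genes, with 9 of 10 values negative. In 5% against 1% livers Ugt1a6a, Ugt2b5 and Ugt2b35 rose and none fell, where 1.33% of all genes passed and 0.861% rose. The comparisons of each dose with control share the control livers.

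**Figure D1:**
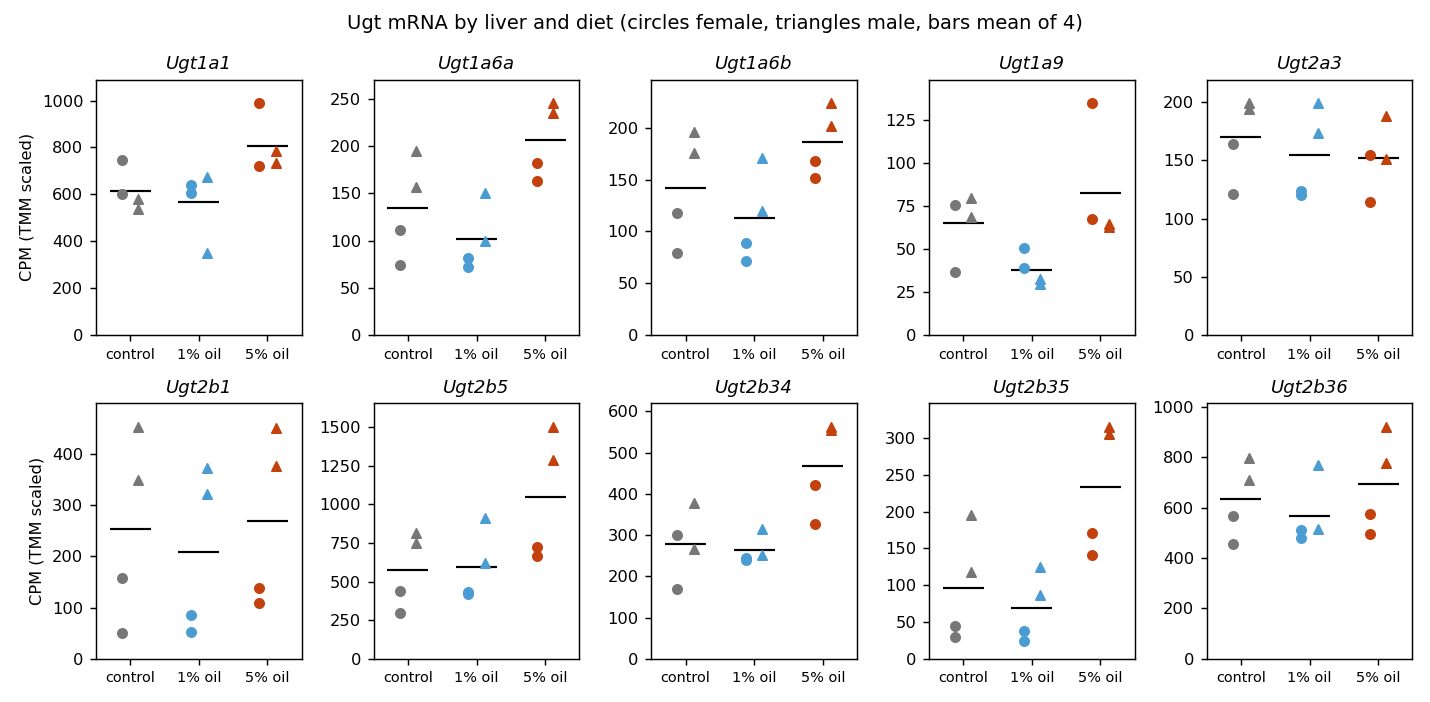
TMM-scaled CPM (vertical axes, from 0) of the 10 Ugt members in each liver by diet, circles for females, triangles for males and a bar for the mean of 4. The 5% females and 5% males each lie above the control animals of their own sex for Ugt1a6a, Ugt1a6b, Ugt2b5, Ugt2b34 and Ugt2b35.

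Over all 4 livers per diet, 5% and control overlapped for all 10 members, and 3.11% of all genes had every 5% liver above every control liver. Within each sex they overlapped less. For 5 members, Ugt1a6a, Ugt1a6b, Ugt2b5, Ugt2b34 and Ugt2b35, both 5% females were above both control females and both 5% males above both control males, a pattern that 6.16% of all genes had. For 8 members, all but Ugt2a3 and Ugt2b36, the same held for 5% against 1% livers, beside 9.43% of all genes. Over all livers of both diets, every 5% liver was above every 1% liver for 5 members (Ugt1a1, Ugt1a6a, Ugt1a9, Ugt2b34 and Ugt2b35) and for 4.13% of all genes. No member was apart in both sexes for 1% against control livers in either direction, where 4.58% of all genes were higher and 5.55% lower in both sexes.

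Ugt2b35 had the largest fold change of the members at 5%. It is 1 of the Ugt2b enzymes, a group known for conjugating steroids, bile acids and drugs. Its level was 29.4 and 44.1 CPM in control females and 195 and 118 CPM in control males, 37.55 and 24.5 CPM in 1% females and 86.8 and 125 CPM in 1% males, and 170.5 and 142 CPM in 5% females and 306 and 315.5 CPM in 5% males. The 5% females stood at the level of the control males, and the 5% males were above every other liver. The gene rose by 1.54 ± 0.26 on the log2 scale in 5% against control livers, a 2.92-fold difference (edgeR adjusted p = 0.00824), and by 1.97 ± 0.27 in 5% against 1% livers (edgeR adjusted p = 0.00659). The difference of 1% from control was -0.42 ± 0.26 (edgeR adjusted p = 0.568). Per percent of oil the fitted slope was 0.35 ± 0.06 (edgeR adjusted p = 0.00882), where 3 members and 1.22% of all genes had a rising slope past the threshold. Both calls at 5% held without each library in turn, and both were lost without sex as a term, at edgeR adjusted p of 0.487 against control and 0.25 against 1%.

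Ugt2b5, also of the Ugt2b group, rose by a smaller fold. It had 297 and 439 CPM in control females and 814 and 752 CPM in control males, 431.5 and 422 CPM in 1% females and 619 and 908 CPM in 1% males, and 667 and 725 CPM in 5% females and 1502 and 1288 CPM in 5% males. The 5% males were the highest of all livers, and the 5% females lay below the control males. The log2 fold change was 0.87 ± 0.17 in 5% against control livers (edgeR adjusted p = 0.0155) and 0.79 ± 0.17 in 5% against 1% livers (edgeR adjusted p = 0.0424). The first call was lost without control male N968 (edgeR adjusted p = 0.0649) and without sex as a term (0.403). The second was lost in 9 of the 12 fits without 1 library, at edgeR adjusted p of 0.0527 to 0.158, with upper quartile factors (0.0559), without sex as a term (0.363) and with the noncoding share as a covariate (0.134). The difference of 1% from control was 0.09 (edgeR adjusted p = 0.883). Ugt2b5 is the only Ugt among the 261 genes of the authors' deposited table, which gives it a log2 fold change of 0.60 with a p-value of 0.000598 and an adjusted p of 0.0488. The contrast of the authors' deposited table is not named there. Over its 261 genes the authors' log2 fold changes differed by a median of 0.268 from those of 5% against control and 0.256 from those of 1% against control. From the mean of both doses they differed by a median of 0.128, and that mean was 0.48 for Ugt2b5. The authors' value is therefore not set against either dose alone.

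Ugt2b34 lay near the threshold. It had 170 and 300.5 CPM in control females and 377 and 265 CPM in control males, 239 and 245 CPM in 1% females and 252 and 315.5 CPM in 1% males, and 423 and 327 CPM in 5% females and 563 and 554 CPM in 5% males. The 5% males were above all other livers, while 5% female N988 was below control male N967. The log2 difference was 0.74 ± 0.19 in 5% against control livers (edgeR adjusted p = 0.0628) and 0.80 in 5% against 1% livers (edgeR adjusted p = 0.0588), and neither passed. In 1% against control livers the log2 difference was -0.07 (edgeR adjusted p = 0.924). The slope over the 3 doses did pass, at 0.16 ± 0.04 per percent of oil (edgeR adjusted p = 0.0363), as did rising slopes for 1.22% of all genes. It lost that call in 9 of the 12 fits without 1 library. A fitted slope does not show a step at each dose.

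Ugt2b36, Ugt2b1 and Ugt2a3 did not pass in any diet comparison. Ugt2b36 had 454 and 568 CPM in control females and 711 and 796 CPM in control males, 479 and 510.2 CPM in 1% females and 514 and 768 CPM in 1% males, and 497 and 575 CPM in 5% females and 921 and 776 CPM in 5% males. Its log2 difference was 0.12 in 5% against control livers (edgeR adjusted p = 0.827). Ugt2b1, an enzyme that in rat conjugates bisphenol A, had a log2 difference of 0.14 in 5% against control livers (edgeR adjusted p = 0.893), and Ugt2a3, whose human counterpart conjugates bile acids, one of -0.15 (edgeR adjusted p = 0.759). Ugt2b1 ranged from 108 to 451 CPM in 5% livers and from 51.3 to 453 CPM in control livers, and Ugt2a3 from 114 to 188 CPM in 5% livers and from 121 to 199 CPM in control livers.

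**Figure D2:**
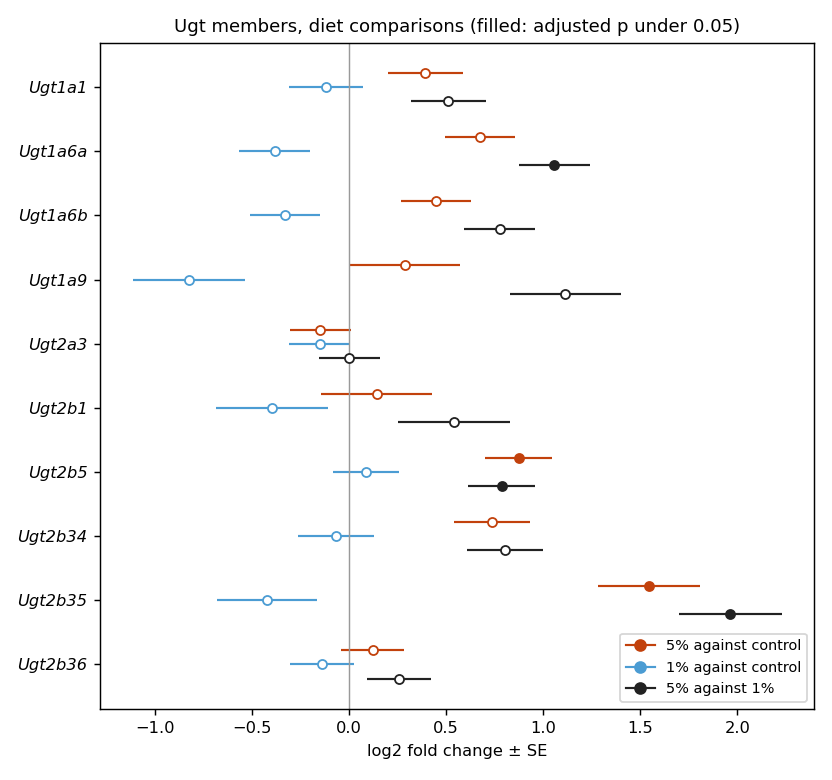
Log2 fold change (horizontal axis) with its standard error of each Ugt member in 5% against control, 1% against control and 5% against 1% livers, filled where edgeR's adjusted p was under 0.05. Filled points are those of Ugt2b35 and Ugt2b5 in both 5% comparisons and of Ugt1a6a in 5% against 1%, and no point of 1% against control is filled.

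Among the Ugt1a members, Ugt1a6a rose in 5% against 1% livers. Ugt1a6 enzymes conjugate small planar phenols. Ugt1a6a had 73.8 and 111 CPM in control females and 195 and 157 CPM in control males, 81.3 and 72.3 CPM in 1% females and 99.9 and 151 CPM in 1% males, and 163 and 182 CPM in 5% females and 235 and 245 CPM in 5% males. Every 5% liver was above every 1% liver, and 5% females overlapped control males. The log2 fold change was 1.06 ± 0.18 in 5% against 1% livers (edgeR adjusted p = 0.0238). In 5% against control livers it was 0.68 ± 0.18 (edgeR adjusted p = 0.068), which did not pass. The call against 1% was lost in 5 of the 12 fits without 1 library, without 1% females N984 (edgeR adjusted p = 0.101) and N983 (0.0587), 1% male N971 (0.0857), 5% female N987 (0.0535) and 5% male N976 (0.0807), with the noncoding share as a covariate (0.0556) and without sex as a term (0.181).

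Ugt1a6b, the neighbouring copy, had 79.2 and 118 CPM in control females and 195.5 and 176 CPM in control males, 88.7 and 71.7 CPM in 1% females and 120.0 and 171 CPM in 1% males, and 152 and 168 CPM in 5% females and 224 and 202 CPM in 5% males. It followed the order of Ugt1a6a with smaller differences, 0.45 in 5% against control livers (edgeR adjusted p = 0.263) and 0.78 in 5% against 1% livers (edgeR adjusted p = 0.0519). The summed level of both genes averaged 276 ± 106 CPM in control livers, 214 ± 78.4 CPM in 1% livers and 393 ± 71.5 CPM in 5% livers (SD, n = 4 each).

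Ugt1a1, the enzyme that conjugates bilirubin, had 602 and 746 CPM in control females and 578 and 539.5 CPM in control males, 607 and 640.1 CPM in 1% females and 351 and 675 CPM in 1% males, and 989.7 and 723 CPM in 5% females and 784 and 735 CPM in 5% males. Its lowest 5% liver was above every 1% liver and below the highest control liver. The log2 difference was 0.39 ± 0.19 in 5% against control livers (edgeR adjusted p = 0.372) and 0.51 ± 0.19 in 5% against 1% livers (edgeR adjusted p = 0.188). Neither passed.

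Ugt1a9, whose human counterpart conjugates bulky phenols, had 36.6 and 75.6 CPM in control females and 79.6 and 68.3 CPM in control males, 38.8 and 50.5 CPM in 1% females and 29.8 and 32.4 CPM in 1% males, and 135 and 67.4 CPM in 5% females and 64.1 and 62.8 CPM in 5% males. The 5% female N987 stood above all other livers, and both 1% males were below every other liver. The log2 difference was -0.83 ± 0.29 in 1% against control livers (edgeR adjusted p = 0.301) and 1.11 ± 0.29 in 5% against 1% livers (edgeR adjusted p = 0.076). The 1% difference passed without control female N979, the library of fewest reads, at -1.09 (edgeR adjusted p = 0.0355).

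The members differ in how many letters tell them apart from the rest of the family. The leading transcripts of the 4 Ugt1a members shared identical stretches of 1313 to 1350 bases, whereas those of the 6 Ugt2 members shared at most 111 bases in a row. Of the 31-base words of the leading transcript, 41.5% were found in no other Ugt gene for Ugt1a1, 33.2% for Ugt1a9, 14.9% for Ugt1a6b and 0 for Ugt1a6a, whose words all stand in annotated Ugt1a7c transcripts too. The leading Ugt1a6a transcript took from 0.0528% to 84.4% of that gene's estimated reads in single libraries. For Ugt2b35 the share of words found nowhere else in the family was 96.5%, for Ugt2b34 97.2% and for Ugt2b1 99.2%, and for Ugt2b5 it was 44.2%, with 44.9% shared with Ugt2b38. Ugt2b38 itself had at most 2.23 CPM in any library. Reads of any sequence that more than 1 Ugt1a gene holds, which for Ugt1a6a is the whole leading transcript, were shared out by estimation. The error of that step was not measured.

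Summed over their genes, both groups had their highest mean on 5% oil. The Ugt1a genes together averaged 1175 ± 259 CPM in control livers, 996 ± 219 CPM in 1% livers and 1472 ± 84.1 CPM in 5% livers (SD, n = 4 each). The Ugt2b genes together averaged 1837 ± 709 CPM in control livers, 1704 ± 582 CPM in 1% livers and 2707 ± 963 CPM in 5% livers. The log2 difference of 5% from control was 0.341 for the Ugt1a sum (edgeR adjusted p = 0.469) and 0.577 for the Ugt2b sum (edgeR adjusted p = 0.0934), and neither passed. The Ugt2b sum passed with DESeq2 (adjusted p = 0.0231) and with limma trend on the deposited CPM (adjusted p = 0.0124). Of all Ugt2b reads, Ugt2b35 took 8.56% ± 0.878 in 5% livers and 4.66% ± 2.25 in control livers, and Ugt2b5 took 38.2% ± 2.13 in 5% livers and 30.9% ± 1.85 in control livers. Ugt2b36 took 26.2% ± 3.15 of them in 5% livers and 36.4% ± 7.15 in control livers (SD, n = 4 each, no test). Ugt1a1 took 54.7% ± 5.36 of the Ugt1a reads in 5% livers and 53.3% ± 7.17 in control livers.

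**Figure D3:**
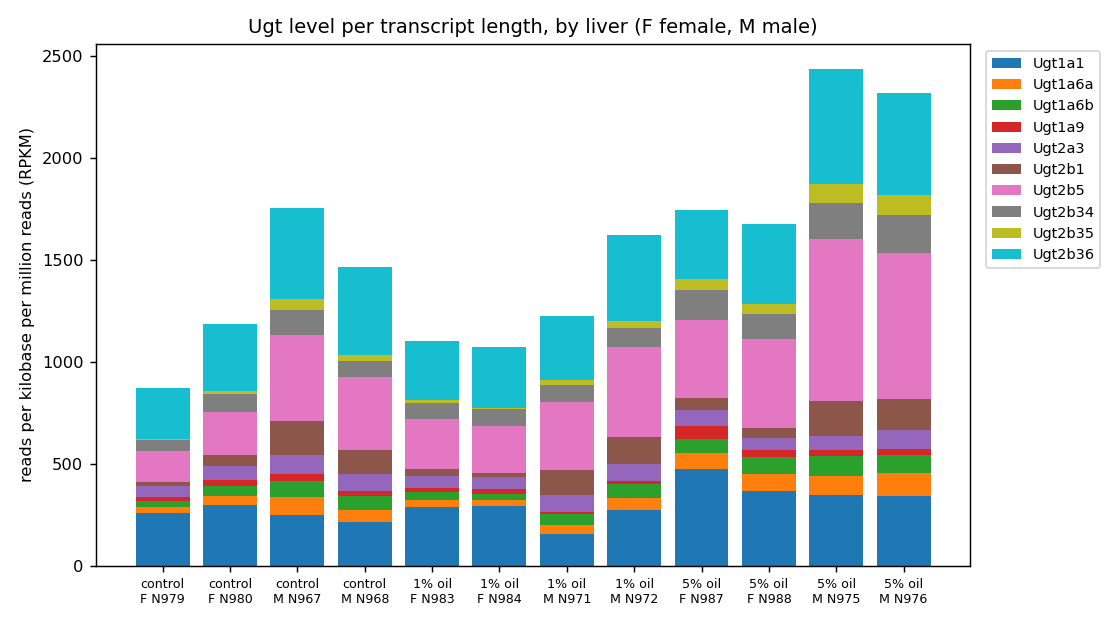
Stacked RPKM, reads per kilobase of transcript relative to the library total (vertical axis, from 0), of the 10 Ugt members in each of the 12 livers, ordered control, 1% and 5% oil, females before males. The stacks of 5% males N975 and N976 are the tallest, and Ugt2b36, Ugt2b5 and Ugt1a1 fill most of every stack.

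Levels of different genes can be set side by side per transcript length, in RPKM without TMM scaling. In control livers the order by mean was Ugt2b36 (364 ± 93.5), Ugt2b5 (286 ± 125), Ugt1a1 (256 ± 35.2), Ugt2b1 (90.9 ± 67.1), Ugt2b34 (84.1 ± 27.3), Ugt2a3 (73.9 ± 15.4), Ugt1a6b (57.0 ± 21.8), Ugt1a6a (53.8 ± 24.1), Ugt1a9 (27.3 ± 8.17) and Ugt2b35 (26.7 ± 21.8; SD, n = 4 each). Neighbours in that order differed by less than the larger of their SDs, except for the steps between Ugt1a1 and Ugt2b1 and between Ugt1a6a and Ugt1a9. In 5% livers Ugt2b5 came first at 582 ± 202, ahead of Ugt2b36 at 450 ± 102 and Ugt1a1 at 381 ± 62.3, and Ugt2b35 had 71.9 ± 24.8 per kilobase, close to Ugt2a3 at 75.1 ± 13.1.

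Females had less mRNA than males for most members. In female against male livers over all diets 7 of the 10 members were lower and 0 higher, where 8.94% of all genes passed, 5.34% lower in females. Ugt2b1 had the largest difference, with 99.2 ± 44.2 CPM in females and 387 ± 53.8 CPM in males (SD, n = 6 each), a log2 difference of -2.00 ± 0.24 (edgeR adjusted p = 0.00026), and every female was below every male. Ugt2b35 differed by -1.61 ± 0.22 (edgeR adjusted p = 0.000504) and Ugt2b5 by -0.98 ± 0.14 (edgeR adjusted p = 0.000778). Ugt1a6b (-0.73), Ugt1a6a (-0.70), Ugt2b36 (-0.53) and Ugt2a3 (-0.47) were also lower in females. Within each of the 3 diets both females were below both males for 6 members, Ugt1a6a, Ugt1a6b, Ugt2b1, Ugt2b5, Ugt2b35 and Ugt2b36, and for 6.72% of all genes. With the noncoding share as a covariate only Ugt2b1, Ugt2b35 and Ugt2b5 passed, and calls over all genes fell from 1235 to 327. Ugt2b34 (-0.42, edgeR adjusted p = 0.105), Ugt1a1 (0.24, edgeR adjusted p = 0.322) and Ugt1a9 (0.27, edgeR adjusted p = 0.465) did not pass.

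**Figure D4:**
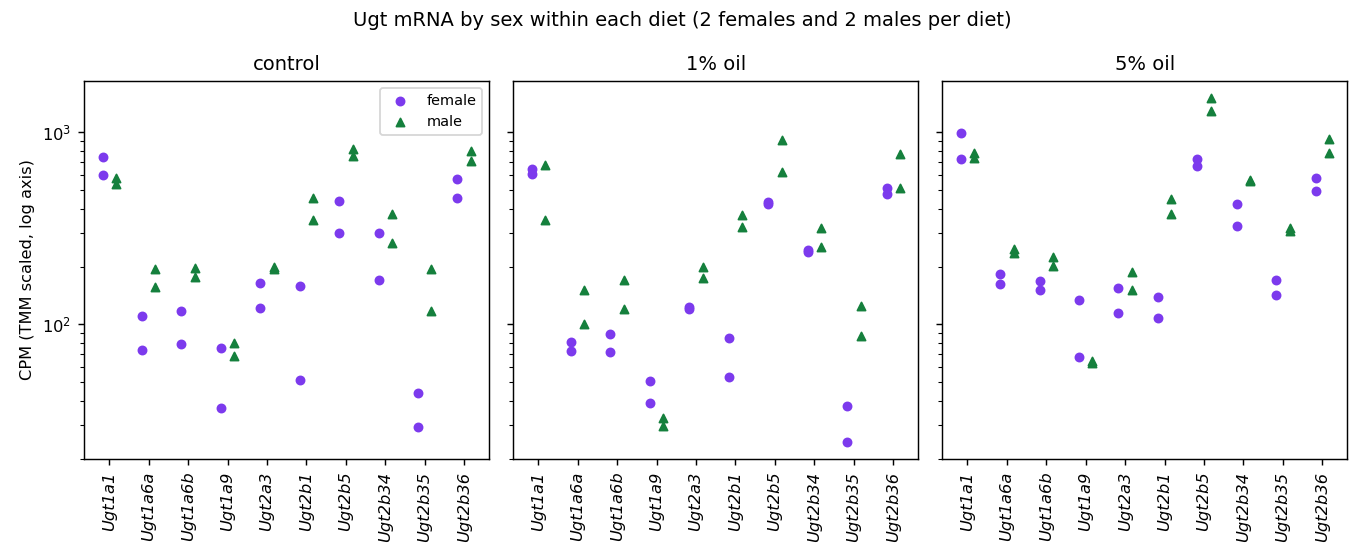
TMM-scaled CPM (vertical log axis) of the 10 Ugt members in each female (circles) and male (triangles) liver, in panels for control, 1% and 5% oil. Both females are below both males in every panel for 6 members (Ugt1a6a, Ugt1a6b, Ugt2b1, Ugt2b5, Ugt2b35 and Ugt2b36), as for 6.72% of all genes.

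The diet response of Ugt2b35 was examined in each sex. In females the log2 fold change of 5% against control was 2.08 ± 0.33 (edgeR adjusted p = 0.0104), and in males the value was 0.99 ± 0.32 (edgeR adjusted p = 0.46), where 1.85% of all genes passed in females and 0.181% in males. The female to male ratio of its mean CPM was 0.235 in control livers, 0.292 in 1% livers and 0.502 in 5% livers. The difference between the sexes in the 5% response was 1.09 ± 0.45 (unadjusted p = 0.0321, edgeR adjusted p = 0.946), which did not pass. For the sex differences of the 5% and the 1% response edgeR called 0 members and 0 of all genes, while 645 and 517 genes had an unadjusted p under 0.05. DESeq2 called 34 and 6 of all genes there, none of them a member. For Ugt2b5 the response to 5% was 0.92 ± 0.26 in females (edgeR adjusted p = 0.0979) and 0.83 ± 0.26 in males (edgeR adjusted p = 0.428), and the female to male ratio was 0.499 in 5% livers and 0.470 in control livers.

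No other Ugt gene passed in any diet comparison (0 of 9 tested, 2 with an unadjusted p under 0.05 in each of the 3 comparisons). Over all 13814 genes that count was 2010 for 5% against control, 1530 for 1% against control and 2454 for 5% against 1%. Ugt3a2, whose human counterpart uses UDP-glucose and UDP-xylose, had 254 ± 81.3 CPM in 5% livers and 319 ± 118 CPM in control livers. Ugt1a5 had 183 ± 41.0 CPM in 5% livers and 205 ± 181 CPM in control livers, and Ugt3a1 97.3 ± 42.2 CPM in 5% livers and 94.8 ± 40.4 CPM in control livers (SD, n = 4 each). Ugt1a10 reached 37.7 CPM in 1 library, Ugt1a8 33.4 CPM in control female N979 and was listed at 0 in the other control livers, and Ugt1a7c, Ugt1a2, Ugt2a2, Ugt2b37, Ugt2b38, Ugt2a1 and Ugt8a, the last of which makes a myelin lipid, stayed under 3 CPM in every library. Ugt3a1 (log2 difference -0.87, edgeR adjusted p = 0.00665) and Ugt2b38 (-4.48, edgeR adjusted p = 0.00399) were lower in females than in males, Ugt2b38 with at most 0.0786 CPM in females and 2.23 CPM in males.

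Of 6 genes of UDP-glucuronic acid supply and deconjugation, 3 rose in 5% against control livers and 0 fell, where 1.19% of all genes rose. At 1% edgeR called 0, where 0.224% of all genes passed, with 1 at an unadjusted p under 0.05, beside 1530 of all 13814 genes. Ugdh, which makes UDP-glucuronic acid, rose by 1.07 ± 0.22 (edgeR adjusted p = 0.0219), with 276 ± 111 CPM in 5% livers and 137 ± 73.6 CPM in control livers (SD, n = 4 each). Slc35d1, which carries UDP-glucuronic acid into the endoplasmic reticulum, rose by 0.81 ± 0.14 (edgeR adjusted p = 0.00861), and Entpd5, which splits the UDP that the reaction leaves there, by 0.94 ± 0.21 (edgeR adjusted p = 0.0338). In 5% against 1% livers Ugdh rose by 1.42 ± 0.22 (edgeR adjusted p = 0.0141) and Entpd5 by 0.94 ± 0.21 (edgeR adjusted p = 0.0467), where 0.861% of all genes rose. The median of the 6 was 0.41 at 5% against control.

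Of 11 genes of bilirubin and glucuronide transport, 3 rose and 0 fell in 5% against control livers, where 1.19% of all genes rose. At 1% edgeR called 0, where 0.224% of all genes passed, with 1 at an unadjusted p under 0.05, beside 1530 of all 13814 genes. Abcc4, an export pump of the blood-side membrane, rose by 2.97 ± 0.27 (edgeR adjusted p = 8.77e-05), with 18.0 ± 6.25 CPM in 5% livers and 2.19 ± 1.23 CPM in control livers (SD, n = 4 each). Abcc3, which exports glucuronides into blood, rose by 1.06 ± 0.22 (edgeR adjusted p = 0.0212), and Blvrb, a biliverdin reductase, by 1.13 ± 0.27 (edgeR adjusted p = 0.0435). In 5% against 1% livers Abcc4 rose by 2.37 ± 0.25 (edgeR adjusted p = 0.000846), the only 1 of the 11, where 0.861% of all genes rose. The median of the 11 was 0.14 at 5% against control.

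**Figure D5:**
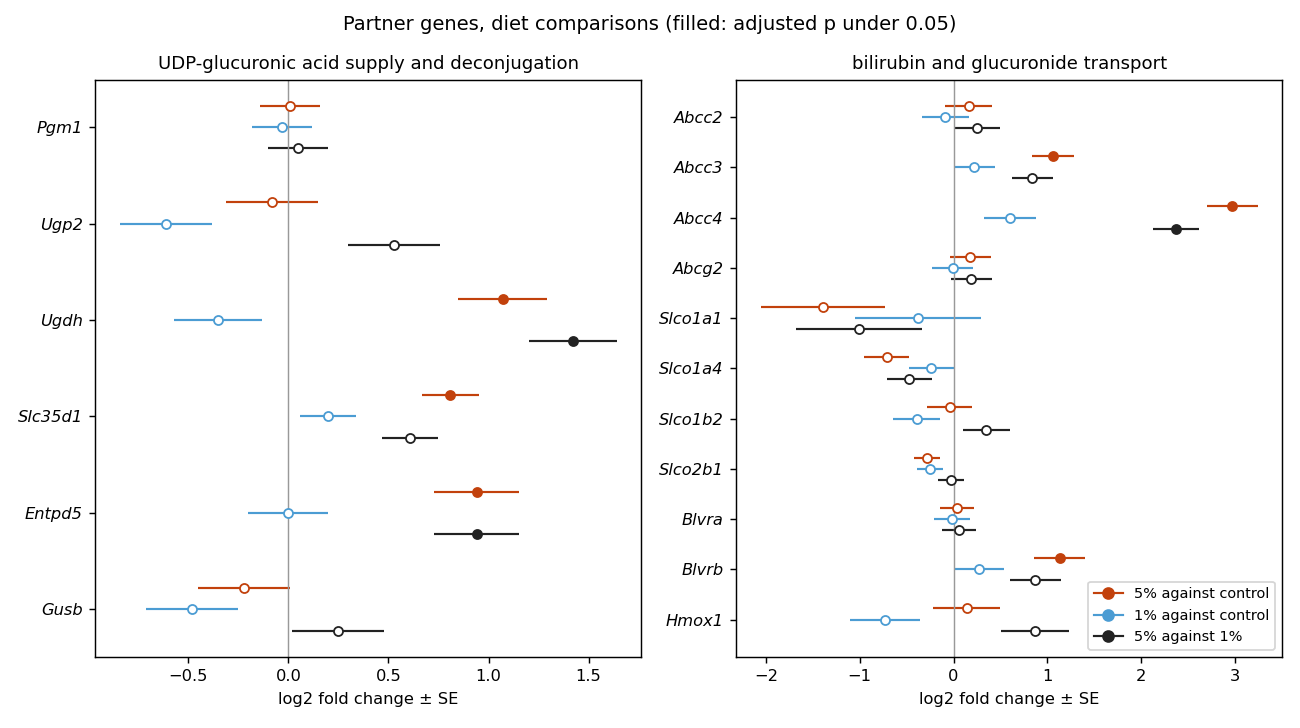
Log2 fold change (horizontal axes) with its standard error of 6 genes of UDP-glucuronic acid supply and deconjugation (left) and 11 genes of bilirubin and glucuronide transport (right) in 5% against control, 1% against control and 5% against 1% livers, filled where edgeR's adjusted p was under 0.05. Ugdh, Slc35d1, Entpd5, Abcc3, Abcc4 and Blvrb are filled for 5% against control, and no point of 1% against control is filled.

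Of 12 nuclear receptors and factors linked to Ugt genes, edgeR called 0 in each diet comparison, with 1 at an unadjusted p under 0.05 for 5% against control, 0 for 1% against control and 3 for 5% against 1%. In the same order 2010, 1530 and 2454 of all 13814 genes had such a p. The smallest p-value in 5% against control livers was that of the bile acid receptor Nr1h4, at 0.50 ± 0.16 (edgeR adjusted p = 0.141). Of 11 tested NRF2 targets, 6 rose in 5% against control livers, among them Nqo1 by 1.70 ± 0.18 (edgeR adjusted p = 0.000293) and the glutathione transferases Gstm1 by 2.09 ± 0.23 (0.000387) and Gstm3 by 2.10 ± 0.34 (0.00781), 0 passed at 1% (3 with an unadjusted p under 0.05), and 7 rose in 5% against 1% livers. Abcc4 counts in this list and in the transport list. Of all tested genes, 1.19% rose in 5% against control livers and 0.861% in 5% against 1% livers, and 0.224% passed in 1% against control livers. An unadjusted p under 0.05 was found for 9 of the 11 NRF2 targets in 5% against control and for 10 in 5% against 1% livers.

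Of 12 PPARα targets, 6 rose and 1 (Pdk4) fell in 5% against control livers, 4 rose in 1% against control livers, and 0 passed in 5% against 1% livers (2 with an unadjusted p under 0.05). The acyl-CoA thioesterase gene Acot1 rose by 2.46 ± 0.18 in 5% against control livers and by 2.50 ± 0.19 in 1% against control livers. Of 7 CAR and PXR targets, 2 rose in 5% against control livers, Cyp2c29 by 1.71 ± 0.31 (edgeR adjusted p = 0.0124) and Cyp2b10 by 2.54 ± 0.51 (edgeR adjusted p = 0.0231), and 0 passed at 1% (4 with an unadjusted p under 0.05). Of 4 tested AhR targets 0 passed against control at either dose (1 with an unadjusted p under 0.05 at 5% and 0 at 1%), and Tiparp rose by 1.30 ± 0.27 in 5% against 1% livers (edgeR adjusted p = 0.039). Of 11 genes of sulfation, the other main conjugation of phenols and steroids, 0 rose and 1 fell in 5% against control livers, which was Sult1d1, by 0.93 ± 0.22 (edgeR adjusted p = 0.0453), and Sult1a1 fell in 5% against 1% livers by 0.78 ± 0.17 (edgeR adjusted p = 0.0447). The list medians at 5% against control were 0.86 for NRF2, 0.86 for PPARα, 1.14 for CAR and PXR, 0.49 for AhR targets and -0.74 for the sulfation genes, against 0.0127 over all genes. An unadjusted p under 0.05 in 5% against control was found for 8 of the 12 PPARα targets, 5 of the 7 CAR and PXR targets and 7 of the 11 sulfation genes. In 1% against control it was found for 10 PPARα targets and 2 sulfation genes, and in 5% against 1% for 7 sulfation genes. Beside the unadjusted counts of these lists, 2010 of all 13814 genes had a p under 0.05 in 5% against control. The count was 1530 in 1% against control and 2454 in 5% against 1%. Beside the calls of these lists, 2.46% of all genes passed in 5% against control, with 1.19% higher. The share was 0.224% in 1% against control and 1.33% in 5% against 1%, the latter with 0.861% higher.

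Other features of the livers moved with the diet. Of 12 clock and clock output genes, 5 rose and 3 fell in 5% against control livers, among them Dbp, which rose by 5.36 ± 0.83 (edgeR adjusted p = 0.00919), and Cry1, which fell by 1.83 ± 0.26 (edgeR adjusted p = 0.00282), and 1, Tef, rose at 1%. The summed level of these 12 genes was 333 to 421 CPM in 5% livers and 177 to 273 CPM in control livers. Of all tested genes, 2.46% passed in 5% against control livers, with 1.19% higher, and 0.224% passed in 1% against control livers. Of 7 periportal hepatocyte markers Ass1 fell, and the sum of the 7 was 2210 to 3850 CPM in 5% livers and 5250 to 7720 CPM in control livers. Of 10 pericentral markers Gulo fell, with sums of 7160 to 11400 CPM in 5% livers and 6850 to 8320 CPM in control livers. Of 6 general hepatocyte markers, all among the tested genes, 0 passed (2 with an unadjusted p under 0.05, beside 2010 of all 13814 genes). Sums of the 6 were 85100 to 104000 CPM in 5% livers and 96400 to 169000 CPM in control livers. Their part in the Ugt results was not tested.

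Of markers of other cell types edgeR called 0 at either dose against control. At 5%, 0 of 8 markers of Kupffer cells and macrophages, 2 of 5 of sinusoidal endothelial cells, 2 of 6 of stellate cells, 0 of 5 of cholangiocytes and 0 of 5 of lymphocytes had an unadjusted p under 0.05. At 1%, 7 of 8 Kupffer cell markers did, with a median log2 difference of -0.83, beside 0 of 5, 2 of 6, 0 of 5 and 0 of 5 in the same order of cell types. Over all 13814 genes 2010 had such a p at 5% and 1530 at 1%, both against control. In 5% livers the markers summed to 114 to 299 CPM for Kupffer cells, 82.0 to 118 CPM for endothelial cells, 144 to 218 CPM for stellate cells, 26.2 to 53.1 CPM for cholangiocytes and 1.71 to 8.06 CPM for lymphocytes. In control livers the sums were 221 to 482 CPM for Kupffer cells, 97.6 to 182 CPM for endothelial cells, 152 to 320 CPM for stellate cells, 31.2 to 49.4 CPM for cholangiocytes and 3.53 to 6.71 CPM for lymphocytes. None of the markers was at 0 in all 12 libraries.

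The genes most like the responding members over the 12 livers were found by Spearman's rho after the mean of each sex had been subtracted, among 10694 genes. For Ugt2b35 they were Frat1 (rho 0.99), AI464131 (0.98) and Dnajc12 (0.98), for Ugt1a6a Frat1 (0.98), Bhlhe40 (0.97) and Tbcel (0.96), and for Ugt2b5 Creg1 (0.95), Jagn1 (0.94) and Gstm4 (0.94). The livers share depth and diet differences, and these values are a description.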

How the data were processed

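Per the submitters' processing notes, kallisto, edgeR and limma and the build GRCm39 were used, with versions and roles not given in the sources used here. The authors deposited estimated counts for 49398 genes and 141450 transcripts (11.7% of the gene values are not whole), CPM for 11339 genes, and, for 261 genes, the log2 fold changes and p-values of a test. That table also holds 12 columns of per-library values that were not used. Strandedness of counting is not given in the sources used here. The libraries came from a stranded mRNA kit and RNA with an integrity number above 7, per the labels' protocols. The design text speaks of more samples per diet than the 4 analysed here.

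Rounded estimated counts were analysed with edgeR 4.0.16 under R 4.3.3. The filter filterByExpr, given the 6 diet-by-sex groups, left 13814 genes, and a robust quasi-likelihood fit of all 12 libraries with TMM factors had diet and sex as additive terms. The 2-sided p-values were Benjamini-Hochberg adjusted over 13814 genes, with a threshold of 0.05. Standard errors are absolute log2 fold changes divided by the root of F. A fit of the 6 groups gave responses within each sex. The procedure was also run on simulated counts with the same spread for every gene and no sex effect. That run cannot check the sex term or the effect of the noncoding share. Symbols matched 48845 of the gene IDs, through reference tables of another build, so the only coordinates given are those of RefSeq promoter windows on RefSeq's build. Transcript sequences and lengths are those of GENCODE M21 and promoters those of RefSeq. A count limits precision through depth, and low counts carry larger errors.

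The members, lists, motifs and tests were chosen with earlier results of these data known. The genes named were all measured Ugt genes, and from each other list genes past the threshold, at most 4 per comparison and direction by smallest p, or else at most 2 of smallest p. Not every gene within that rule is named, as with the PPARα targets and the clock genes. A gene of the receptor list is not reported here. Gene lists were described by counts and medians without a set test. The alternatives were RLE and upper quartile factors, no filter, a filter of 50 reads in 4 libraries, DESeq2 1.42.0, limma 3.58.1 voom, limma trend (pseudocount 0.5) on the deposited CPM, summed transcript counts, no sex term, only the 8 libraries compared, the noncoding share as a covariate, and each library left out.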

Additional observations from a re-analysis of the deposited data

Results flagged for a closer look

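Of 30 groups of 4 livers (10 members on 3 diets), 2 held a library set apart from the others. In each, the gap to the nearest other, as a share of the group's range, exceeded Dixon's 95% critical value for 4 samples. Chance gives that in about 1 in 20 groups of 4 drawn from 1 normal population. Each group here held 2 females and 2 males and sex was not removed, so that rate need not hold. Ugt1a9 had 134.6 CPM in 5% female N987, against 62.76 to 67.37 CPM in the other 5% livers, a gap of 0.936 of the range. Without that library the log2 difference of Ugt1a9 in 5% against control livers was -0.003. Ugt2b36 had 768 CPM in 1% male N972, against 479 to 514.3 CPM in the other 1% livers, a gap of 0.878 of the range. The cause of either was not tested.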

How the results depend on the processing

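Of 828 alternative values for 36 results on single members and sums, 740 kept their direction and side of the threshold, 23 lost and 36 gained a call in the same direction, and 29 changed sign, none of them a call. The 2 members that rose in 5% against control livers became 4 with no filter, with 50 reads in 4 libraries, with DESeq2, with the noncoding share as a covariate and with limma trend on the deposited CPM, each adding Ugt1a6a and Ugt2b34, and 0 without sex as a term. Of all genes 340 were called in the main fit, 1011 with no filter, 376 with 50 reads in 4 libraries and 749 with DESeq2. The noncoding share gave 574, limma trend 458 and the fit without sex 107. The 0 in 1% against control became 1 (Ugt1a9) with no filter, where calls over all genes went from 31 to 649. The 3 in 5% against 1% became 6 with no filter, DESeq2, the 8 libraries alone or limma trend, 1 with the noncoding share and 0 without sex. The count was 4 with voom, adding Ugt1a6b, and 2 with upper quartile factors, losing Ugt2b5. Calls over all genes were 184 in the main fit, 1276 with no filter, 699 with DESeq2, 306 with the 8 libraries and 281 with limma trend. They were 183 with voom, 157 with upper quartile factors, 37 with the noncoding share and 8 without sex, so the number called over all genes changed too. The 3 of the slope became 0 without sex and 5 with limma trend. They became 4, adding Ugt1a6a, with no filter, with 50 reads in 4 libraries, with DESeq2, with voom and with the noncoding share. The 7 that differed between female and male livers became 6 with upper quartile factors and with no filter, and 3 with the noncoding share. Over all genes the slope calls went from 308 to 124 without sex and 435 with limma trend. They were 1108 with no filter, 311 with 50 reads in 4 libraries, 733 with DESeq2, 383 with voom and 530 with the noncoding share. Those of female against male went from 1235 to 1229 with upper quartile factors, 2375 with no filter and 327 with the noncoding share.

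Leaving out 1 library gave 1 to 3 members for 5% against control, 0 to 1 for 1% against control, 1 to 6 for 5% against 1%, 2 to 4 for the slope and 5 to 8 for female against male. The single member remaining at 5% against control was found without control male N968, the 1 at 1% without control female N979, and the 6 at 5% against 1% without N979. Those fits called 179, 184 and 385 of all genes, where the fits of all libraries called 340, 31 and 184. For the sex differences of response no member was called in any setting run, while of all genes 229 (5% response) and 109 (1% response) were called with no filter, 34 and 6 with DESeq2, 8 for the 5% response with the noncoding share, and at most 2 without 1 library.

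Signs changed for log2 differences that were not called, the largest of them -0.397 for Ugt2b1 in 1% against control and 0.288 for Ugt1a9 in 5% against control. With the noncoding share, 1% against control gave 0.015 for Ugt1a1, 0.044 for Ugt2a3, 0.131 for Ugt2b1, 0.118 for Ugt2b34 and 0.054 for the Ugt2b sum. With limma trend, Ugt2b34 at 1% against control was 0.039 and Ugt2a3 at 5% against control 0.005. Ugt2a3 in 5% against 1% was -0.014 with RLE factors and with DESeq2, -0.066 with upper quartile factors, -0.030 with 50 reads in 4 libraries, -0.008 with voom, -0.020 without sex and -0.211 with the noncoding share. Without 1 library, ranges that crossed 0 were -0.319 to 0.04 for Ugt1a1, -0.215 to 0.109 for Ugt2b34, -0.033 to 0.204 for Ugt2b5 and -0.201 to 0.033 for the Ugt2b sum (1% against control), -0.003 to 0.452 for Ugt1a9 and -0.092 to 0.527 for Ugt2b1 (5% against control), and -0.105 to 0.091 for Ugt2a3 (5% against 1%). The cause was not tested. No paired analysis was possible because no animal number is shared between diets. Depth limits genes of few reads, such as Ugt2b38 and Ugt1a8.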
